A study of Mus musculus with 5 samples.

Results

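Cytosolic ribosomal protein genes were described in RNA from sorted mouse spleen T cells. Members were the protein-coding rows whose names begin with Rpl or Rps and a number, without the ribosomal kinases, which gave 102 of the 35275 gene rows in the table. Of these, 39 carry small subunit names (Rps) and 63 large subunit names (Rpl). The family was chosen from these same libraries, with its measured share of reads known to be highest in CD8 Treg. Values that involve the CD8 Treg library are therefore given as a description, and their calls support nothing. The 102 rows are of different kinds. A core of 73 (30 small and 43 large subunit) encodes the standard ribosomal proteins, 9 are paralogues such as Rps27l, 19 have pseudogene-style names (-ps) although typed as coding, and Rps19bp1 encodes a protein that binds a ribosomal protein.

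The study compared CD4+ regulatory T cells (CD4 Treg, replicates 1 and 2), CD8+ regulatory T cells (CD8 Treg, a single library) and effector-like CD8+ cells, which by elimination are the libraries labelled CD49lo (replicates 1 and 2). All 5 libraries came from spleens of wild-type C57BL/6 mice of 3 months, after enrichment for CD8 cells and sorting by flow cytometry. The labels name no gate, no transgene or treatment, and no number of animals. They do not say that replicates came from separate mice, so p-values measure the spread between these libraries, which may be technical.

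The ribosome is assembled in the nucleolus from ribosomal RNA and one copy of most ribosomal proteins, so that the genes for both subunits are expressed in near-fixed proportions. The small subunit binds the mRNA and reads its codons, and the large subunit joins amino acids and holds the exit tunnel. Most of these mRNAs begin with a C followed by a run of pyrimidines, the TOP motif, through which mTORC1 signalling controls their translation, while Myc promotes ribosome synthesis in growing lymphocytes. T cells raise ribosome synthesis when they leave quiescence.

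The libraries held 5441444 to 8354971 reads in genes. The summed level in RPKM (reads divided by gene length and by library depth) of 4 CD4 T cell markers was 535 and 563 in CD4 Treg, 10.7 in CD8 Treg and 27.4 and 25.8 in CD49lo, with Foxp3 at 0.387 RPKM in CD8 Treg. For 3 CD8 T cell markers the sums were 36.6 and 31.6, 804, and 989 and 1102 RPKM in that order. Markers of other cells were unequal too. The sum of 8 B cell markers was 61.2 and 62.5 in CD4 Treg, 451 in CD8 Treg and 900 and 979 in CD49lo, mostly Cd74, and Ebf1 was at 0 in CD4 Treg replicate 1. The sum of 7 monocyte, macrophage and neutrophil markers was 14.4 and 2.08, 246, and 498 and 442 RPKM, with Ly6g at 0 in every library but CD49lo replicate 1. The sum of 4 NK cell markers was 2.27 and 2.10, 128, and 337 and 1708 RPKM, of which Gzma made 56.4 in CD8 Treg and 304 and 1580 in CD49lo. Ncr1 was at 0 in CD4 Treg and higher in CD8 Treg (18.8) than in CD49lo (5.28 and 7.03). Xist was at 35.5 and 27.2 RPKM in CD4 Treg and at most 0.083 elsewhere, and the Y-linked Ddx3y at 0.0701 and 0 in CD4 Treg against 18.3 to 27.4 elsewhere. CD4 Treg and the sex of the animals therefore cannot be told apart, while CD8 Treg and CD49lo shared one pattern. The part of these other cells in the values below was not tested. In bulk RNA, fewer cells of a type and less RNA per cell cannot be told apart.

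Ribosomal protein mRNA made up more of the CD8 Treg library than of any other. Members took 9.37% and 9.09% of reads in CD4 Treg replicates 1 and 2, 12.5% in CD8 Treg, and 8.18% and 8.51% in CD49lo replicates 1 and 2. The exact Clopper-Pearson interval of the CD8 Treg share was 12.5006 to 12.5533%, which covers counting error only. The CD8 Treg value lay above the other 4, and the CD4 Treg pair above the CD49lo pair without overlap (9.23 ± 0.195% against 8.35 ± 0.233%, mean ± SD, n = 2 each). A two-sided exact permutation test of 2 libraries against 2 cannot give a p under 0.333.

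Both subunits followed that order. Small subunit members took 3.72% and 3.61% of reads in CD4 Treg, 5.11% in CD8 Treg, and 3.21% and 3.35% in CD49lo. Large subunit members took 5.65% and 5.48%, 7.42%, and 4.97% and 5.16% in the same order. The balance between subunits moved little: the small subunit made up 39.7% of member reads in CD4 Treg replicates 1 and 2, against 40.8% in CD8 Treg and 39.2% and 39.4% for CD49lo. The noncoding transcript Gm26917 also took more of the CD8 Treg library, at 6.86% of reads against 3.33% to 4.16% elsewhere. Its part in the ribosomal share was not tested, but leaving its reads out gave shares of 9.69% and 9.43% in CD4 Treg, 13.5% in CD8 Treg, and 8.54% and 8.83% in CD49lo.

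**Figure D1:**
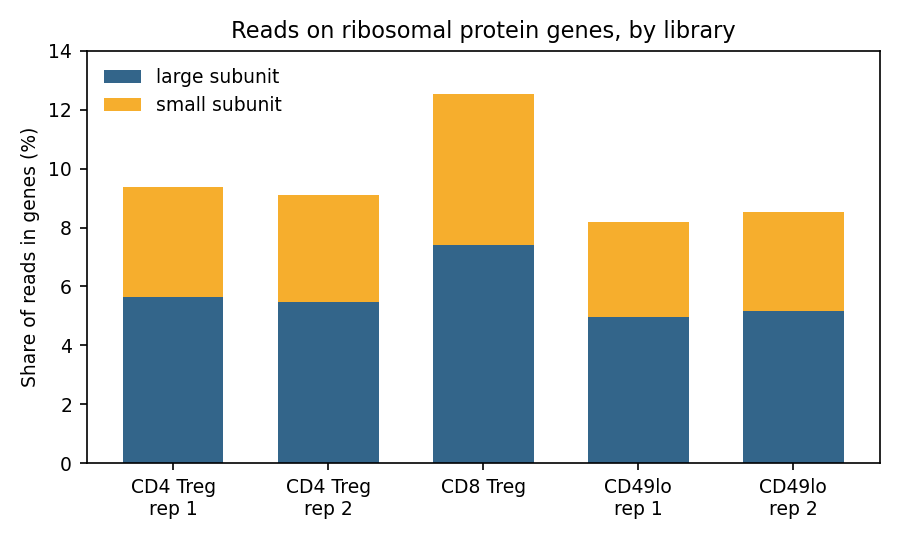
Share of reads in genes (percent, vertical axis) taken by large subunit (blue) and small subunit (yellow) members in each of the 5 libraries. The CD8 Treg bar reaches 12.5%, above the CD4 Treg bars at 9.37% and 9.09% and the CD49lo bars at 8.18% and 8.51%.

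Small subunit levels were led by Rps23, a protein of the decoding centre. It stood at 5157 and 4666 RPKM in CD4 Treg, 6713 in the CD8 Treg library, and 4251 and 4363 in CD49lo. Rps27, a zinc-finger protein, followed at 4839 and 4146, 6016, and 3522 and 4243 RPKM. CD8 Treg was highest for both, and for Rps27 the other groups overlapped. Rps7 and Rps24 were also among the 5 with the highest mean levels, and mutations in both are known from Diamond-Blackfan anaemia. Rps7 lay at 2580 and 2274 in CD4 Treg, 3390 in CD8 Treg, and 2229 and 2315 RPKM in CD49lo. The lowest core member was Rps15a, at 215 and 184, 291, and 172 and 199 RPKM, with Rps20 beside it at 200 and 211, 329, and 212 and 192. The median core level was 1231 and 1213 RPKM in CD4 Treg, 1701 in the CD8 Treg library, and 1034 and 1142 in CD49lo.

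Large subunit levels were led by Rpl26, which sits near the exit tunnel and is known to bind p53 mRNA. It stood at 4198 and 3203 RPKM in CD4 Treg, 4940 in the CD8 Treg library, and 3473 and 3752 in CD49lo. Rpl13a, also known for inflammatory translation control, followed at 3769 and 3151, 4470, and 3640 and 3953 RPKM. For both, the 2 replicated groups overlapped. Rpl19 and Rpl23a were also among the leading 5, with CD8 Treg levels of 3969 and 4050 RPKM. At the low end, Rpl35a lay at 131 and 149, 190, and 124 and 131 RPKM, and Rpl15 at 189 and 196, 262, and 172 and 212. The median core level was 964 and 1019 RPKM in CD4 Treg, 1246 in the CD8 Treg library, and 842 and 829 in CD49lo. In every library, 10 members held 33.0% to 35.0% of the family's summed RPKM.

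Rpl24, which forms a bridge between the subunits, was the only core gene that was hardly counted, at 3, 3, 5, 5 and 0 reads in the order of the groups above. It overlaps the annotated gene Gm28037 on the same strand, and how reads on overlapping genes or near-identical copies were counted is not given in the sources used here. Rpl13, Rpl19 and Rpl13a also overlap another gene on their strand, and 15 core members, Rps28 and Rpl18 among them, overlap a gene on the other strand, so their levels are less certain.

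CD8 Treg held the highest level of 72 of 73 core genes, all 30 of the small subunit and 42 of the large. The exception was Rpl29, highest in CD4 Treg replicate 2. The 42 include Rpl24, whose order rests on few reads (5 in CD8 Treg and 5 in CD49lo replicate 1). Between the replicated groups, the 2 CD4 Treg values lay above both CD49lo values for 16 small subunit core genes, below for 2, and overlapped for 12. For the large subunit the counts were 22 above, 1 below and 20 overlapping. How many of all genes separated in this way, or were highest in CD8 Treg, was not counted, so these counts only describe the family.

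**Figure D2:**
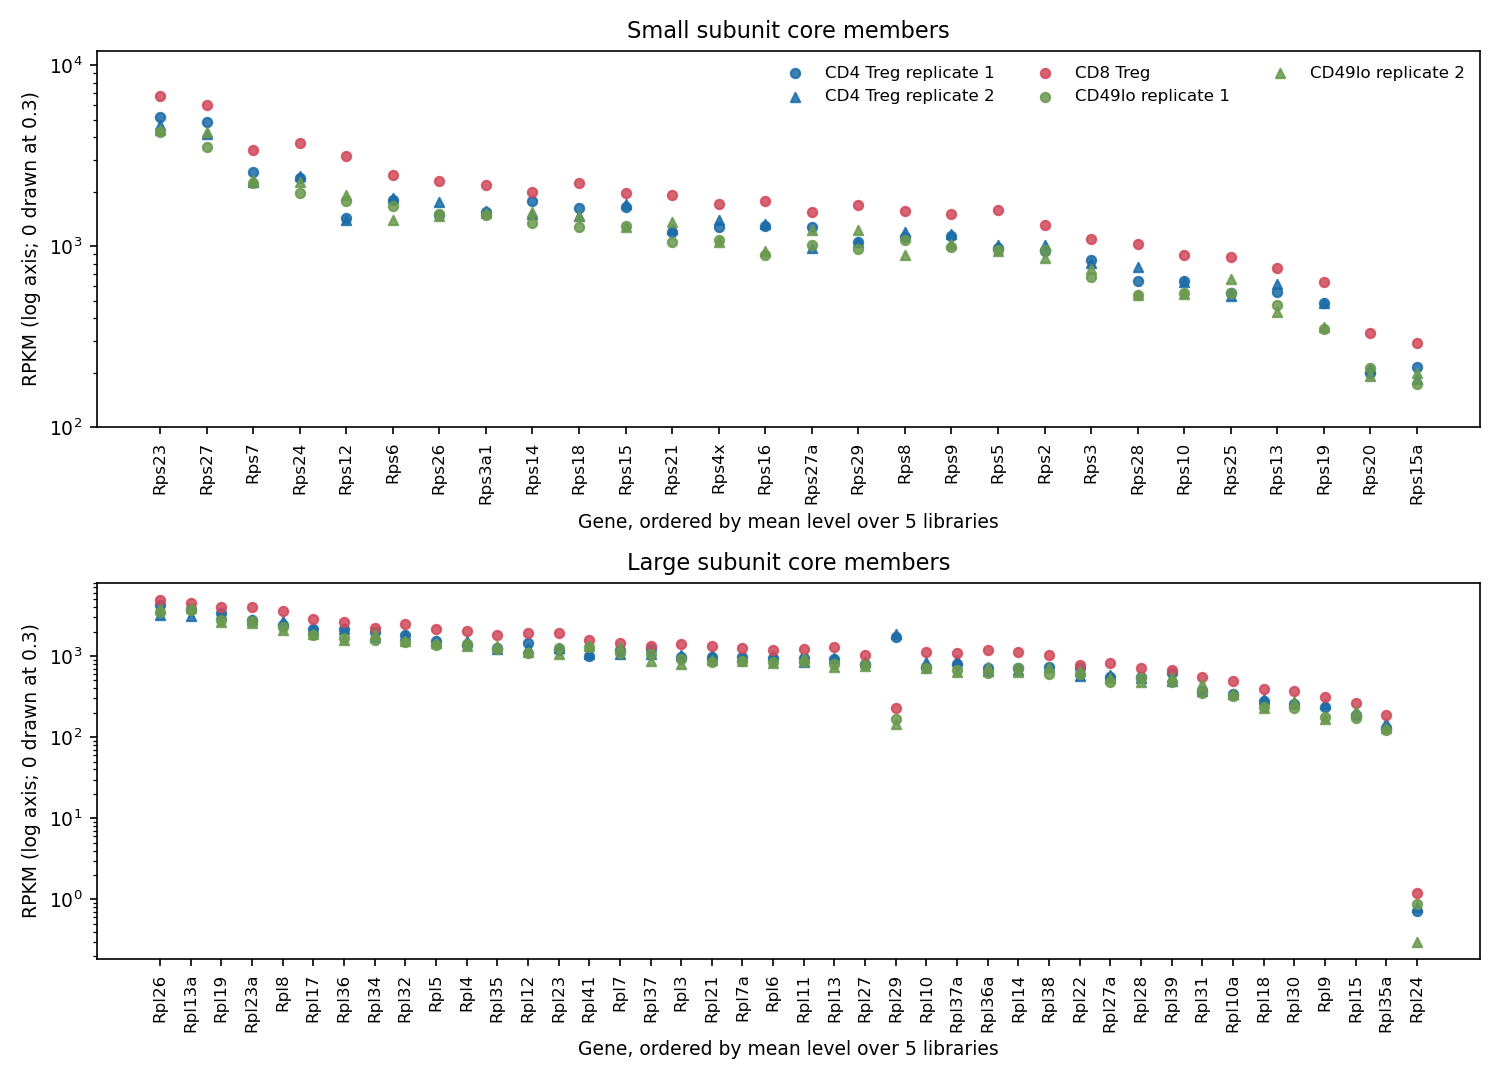
RPKM on a log axis for the small subunit (upper panel) and large subunit (lower panel) core members, a few of which are not drawn, ordered by mean level, with 1 point per library (blue CD4 Treg, red CD8 Treg, green CD49lo; triangles are replicate 2). CD8 Treg is highest for all drawn but Rpl29, which stands at 1724 and 1850 RPKM in CD4 Treg, and Rpl24 lies near 1 RPKM.

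Relative levels within the core were alike across libraries apart from a few genes. Over the 73 core genes, log2 levels correlated at r = 0.996 between the CD4 Treg replicates and 0.993 between the CD49lo replicates. Between CD4 Treg and the other groups, r was 0.956 to 0.967, and 0.987 to 0.995 once Rpl29 was left out. Rpl24, at no more than 1.22 RPKM, is among the 73 and lies far below the rest, so that these Pearson r values lean on it. They were not worked out without Rpl24. These values describe genes within libraries, which are not independent replicates. The core genes whose replicates differed most were Rpl26 (log2 ratio of replicate 1 over 2, 0.39), Rps27a (0.38) and Rpl22 (0.32) in CD4 Treg. In CD49lo they were Rps21 (-0.38), Rpl31 (-0.35) and Rps29 (-0.35), leaving aside Rpl24. The median absolute log2 ratio between replicates was 0.08 in CD4 Treg and 0.12 in CD49lo.

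Pyrimidine runs, for which the family is known, lay at the annotated starts of some of these genes but not of others. Sequences are shown for some of the members described below that had an entry. Rpl7a is added because its run was the longest seen inside the 30-base windows of core genes examined. Rpl29 had no entry. RefSeq promoters (GRCm38.p6, the same assembly as mm10) matched 63 of the 102 members, 22 small and 32 large subunit core genes among them. A run of at least 8 bases of C or T lay within 20 bases on either side of an annotated start in 10 of the 22 small subunit core genes (45.5%) and 17 of the 32 large (53.1%). The share was 18.4% of all 27025 genes in the promoter set and 19.1% of 68 mitochondrial ribosomal protein genes. On the opposite strand the same search found 0.0% and 15.6% of the core genes, against 20.2% of all genes. Each window runs from 15 bases before an annotated start through the first 15 transcribed bases, and capitals mark the longest pyrimidine run of 5 or more. A run at the edge of a window, as in Rps12, may be longer than shown.
Rps27, chr3:90213634-90213663, minus strand: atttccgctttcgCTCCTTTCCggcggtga
Rps27l, chr9:66946071-66946100, plus strand: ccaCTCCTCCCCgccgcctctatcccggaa
Rpl22l1, chr3:28805493-28805522, plus strand: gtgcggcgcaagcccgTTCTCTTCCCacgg
Rpl7a, chr2:26910792-26910821, plus strand: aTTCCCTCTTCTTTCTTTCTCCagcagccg
Rps6, chr4:86857353-86857382, minus strand: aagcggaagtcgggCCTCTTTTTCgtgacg
Rps12, chr10:23787195-23787224, minus strand: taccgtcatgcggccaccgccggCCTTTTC
Rps16, chr7:28350674-28350703, plus strand: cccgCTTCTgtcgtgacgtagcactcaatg
Rpl36al, chr12:69184053-69184082, minus strand: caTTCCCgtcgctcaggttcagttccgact
Rpl41, chr10:128549154-128549183, minus strand: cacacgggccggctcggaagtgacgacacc
The run of Rpl7a had 21 bases, and that of Rps27 had 9. The paralogues Rps27l and Rpl22l1 held runs of 9 and 10, whereas Rpl36al and Rps16 held 5 and Rpl41 none. Among members not shown, the windows of Rps13, Rps15, Rps28, Rps4x, Rpl9 and Rpl37a held no run of 5 or more. Those of Rpl13, Rpl18 and Rpl19 held runs of 9, 10 and up to 11. Annotated starts can lie some bases from the start used in these cells, so a window without a run says only that these letters are not in it.

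The comparison of CD4 Treg with CD49lo asks how classical regulatory T cells differ from effector-like CD8+ cells, and has replicates on both sides. Most core genes were slightly higher in CD4 Treg, and Rpl29 was far higher. The fit used log2(RPKM + 0.5), so that fold changes of low genes are understated, and limma with Benjamini-Hochberg adjustment over the 13298 genes tested. It tested 88 members (38 small and 50 large subunit), 72 of them core. At an adjusted p under 0.05, 15 members were higher (7 small and 8 large subunit) and 2 lower (1 of each). Over all genes tested, 9.45% were called higher and 12.8% lower. The median log2 fold change was 0.17 in the small and 0.15 in the large subunit, against -0.03 over all genes tested and -0.01 over 489 other genes with a mean of at least 100 RPKM. The fold change was positive in 28 of 38 small and 41 of 50 large subunit members.

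Among small subunit core genes, Rps16, whose tail reaches the tRNA in the P site, had the largest fold change, at 1287 and 1325 RPKM in CD4 Treg, 1775 in the CD8 Treg library, and 899 and 940 in CD49lo. Every CD4 Treg value lay above every CD49lo value (log2 fold change 0.53 ± 0.09, SE; adjusted p = 0.0025, limma). Rps19, the gene most often mutated in Diamond-Blackfan anaemia, rose by 0.49 ± 0.09. Rps19 stood at 486 and 485 RPKM in CD4 Treg and 347 and 358 in CD49lo. Small subunit genes also called higher were Rps15 (0.41), Rps28 (0.41), Rps13 (0.40) and Rps4x (0.34). Rps6, the kinase target of the mTORC1 pathway, did not pass at 0.29 ± 0.11 (adjusted p = 0.0993, limma), with 1804 and 1849 RPKM in CD4 Treg and 1660 and 1400 in CD49lo.

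Rps12, a protein of the beak of the small subunit, went the other way. It stood at 1435 and 1386 RPKM in CD4 Treg, 3148 in the CD8 Treg library, and 1783 and 1913 in CD49lo. The 3 groups did not overlap, with CD4 Treg lowest (log2 fold change over CD49lo -0.36 ± 0.09, adjusted p = 0.0198, limma). Its gene (ENSMUSG00000061983) lies at mm10 chromosome 10, 23785211 to 23787195.

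Rpl29 set CD4 Treg apart from both CD8 populations. This large subunit protein (ENSMUSG00000048758, mm10 chromosome 9, 106429454 to 106431568, plus strand) is also known as a heparin-binding protein, and mice without it are small. It stood at 1724 and 1850 RPKM in CD4 Treg, 227 in the CD8 Treg library, and 169 and 146 in CD49lo. The CD4 Treg values were several times higher than any other, with no overlap (1787 ± 89.1 against 157 ± 15.7, mean ± SD, n = 2 each). The log2 fold change over CD49lo was 3.53 ± 0.11 (adjusted p = 2.42e-07, limma). By absolute fold change it ranked 24 of 563 genes with a mean of at least 100 RPKM and 289 of all genes tested. Leaving it out lowered the CD4 Treg share of reads only to 9.24% and 8.96%.

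Of 9 genes tested within 200 kb of Rpl29, 4 were called in the same comparison, where 22.3% of all genes were, and they were picked with their values seen. Parp3 (log2 fold change 1.45 ± 0.22), Rrp9 (1.22 ± 0.16) and Dusp7 (1.15 ± 0.15) were called higher in CD4 Treg, and Poc1a (-1.61 ± 0.46) lower. Rrp9, a component of the small nucleolar particles that process ribosomal RNA, stood at 38.3 and 37.0 RPKM in CD4 Treg, 24.0 in the CD8 Treg library, and 15.2 and 17.1 in CD49lo. Alas1, Acy1, Abhd14a, Abhd14b and Pcbp4, which lie in the same window, did not pass the test. None of the neighbours reached the fold change of Rpl29 in this comparison. In CD8 Treg over CD4 Treg, Pcbp4 (0.249 RPKM in CD8 Treg) was at -3.41, beyond the -2.86 of Rpl29.

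The other large subunit genes called higher were Rpl9 (0.52 ± 0.10), Rpl36 (0.43), Rpl37a (0.40), Rpl18 (0.32), Rpl13 (0.31), Rpl19 (0.31) and Rpl32 (0.29). Rpl9, at the base of the stalk that binds elongation factors, was at 233 and 259 RPKM in CD4 Treg, 310 in the CD8 Treg library, and 179 and 170 in CD49lo. Rpl41, the smallest ribosomal protein, was lower in CD4 Treg (-0.33 ± 0.09, adjusted p = 0.0273, limma), at 997 and 1045 RPKM against 1277 and 1345 in CD49lo and 1575 in CD8 Treg. Rpl5 (0.15 ± 0.09) and Rpl11 (0.02 ± 0.11), which bind Mdm2 when ribosome assembly fails, did not pass. Rpl22, whose loss blocks early αβ T cell development, did not pass either (0.04 ± 0.12).

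X-linked members stood on both sides of the threshold. Rps4x was called higher in CD4 Treg, at 1276 and 1391 RPKM against 1084 and 1056 in CD49lo and 1708 in CD8 Treg. Rpl10 (0.19 ± 0.10), Rpl39 (0.12 ± 0.13) and Rpl36a (0.06 ± 0.11) did not pass. Xist separated the same groups, and its part in the Rps4x difference was not tested.

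Most calls other than Rpl29 needed all libraries. Without CD4 Treg replicate 1, CD4 Treg replicate 2, CD49lo replicate 1 or CD49lo replicate 2, the 17 calls became 2, 1, 1 and 2, in fits with 1 residual degree of freedom. Calls over all genes fell too, from 22.3% to 11.1%, 10.7%, 3.39% and 4.09%. Rpl29 was called in all 4 fits (beside Rpl9 in the first and Rpl39l in the last). Rpl39l passed the filter through CD49lo replicate 1 alone, with 17 reads there and 0 elsewhere. Its calls without CD49lo replicate 2 therefore support nothing. With no filter on low reads, 3 members were called (Rpl29, Rps16 and Rps19), and 3.30% of all genes.

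**Figure D3:**
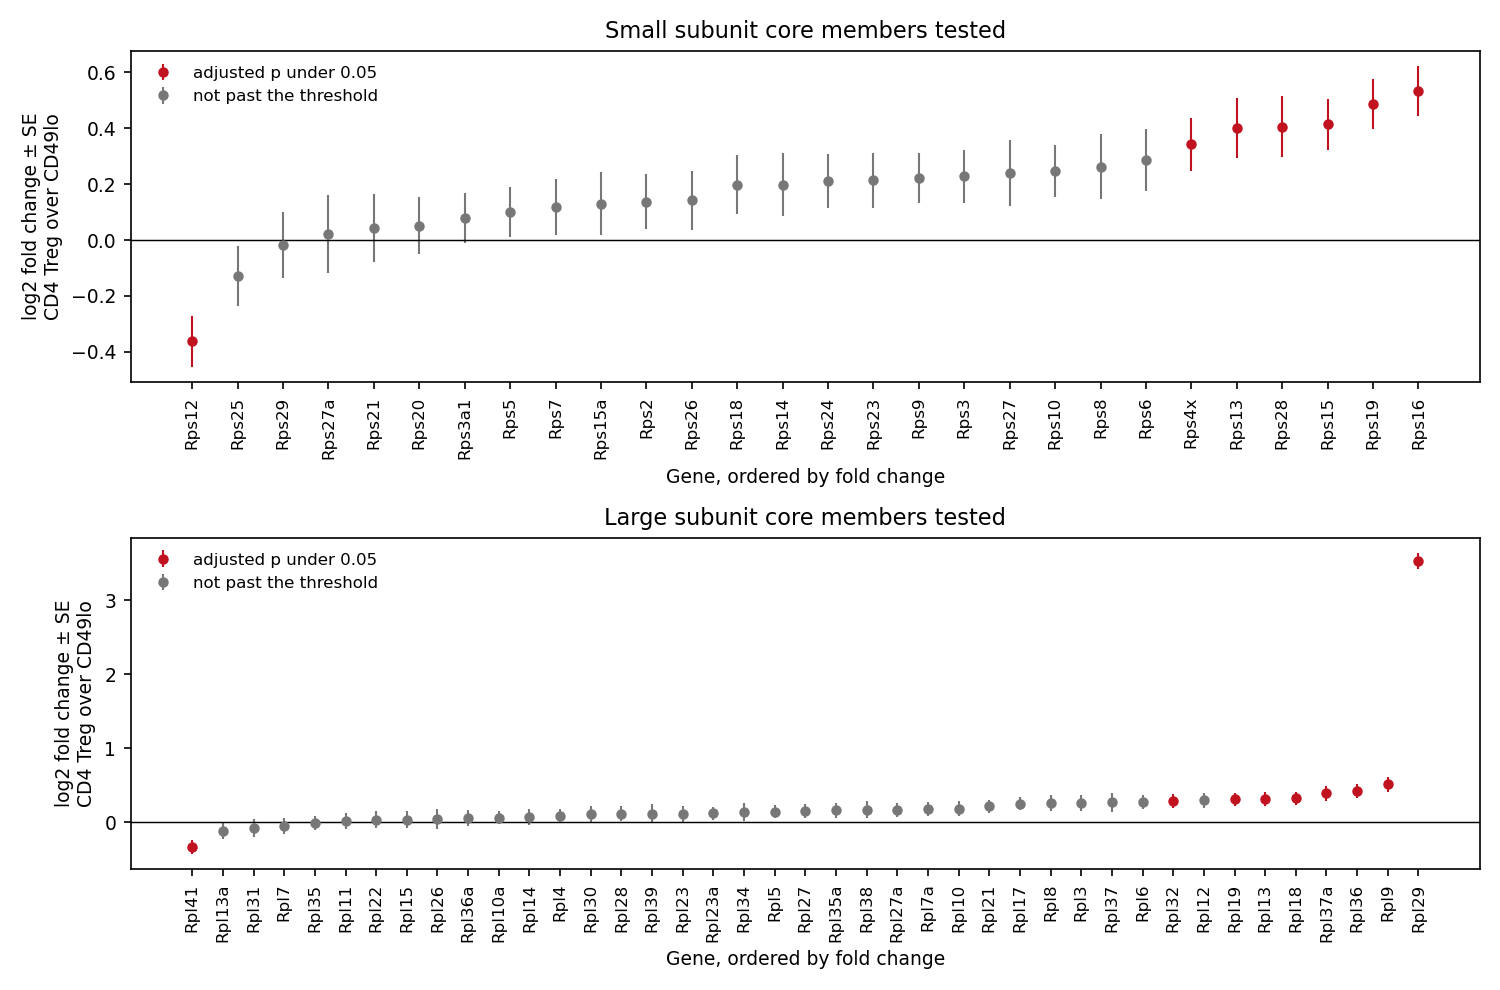
Log2 fold change of CD4 Treg over CD49lo (vertical axis, ± SE) for the small subunit (upper) and large subunit (lower) core members tested, a few of which are not drawn, ordered by size, with red for an adjusted p under 0.05. Rps16 leads the small subunit at 0.53 and Rps12 is lowest at -0.36; Rpl29 stands apart at 3.53.

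A second fit asked which genes differed in their part of the family. It used factors that held the summed RPKM of the members equal in all libraries, which moved the median of all genes tested to -0.19 for CD4 Treg over CD49lo, -0.68 for CD8 Treg over CD49lo and -0.45 for CD8 Treg over CD4 Treg. In CD4 Treg over CD49lo, 2 members were called higher and 4 lower, where 6.41% and 17.7% of all genes were. Rpl29 (3.35 ± 0.13) and Rps16 (0.35 ± 0.10) were higher. Rps12 (-0.54 ± 0.10, adjusted p = 0.00315, limma), Rpl41 (-0.51 ± 0.10, adjusted p = 0.00509, limma), Rpl36al (-0.45 ± 0.11) and Rps4l (-2.10 ± 0.64) were lower. Rps12 made up 1.46% of the family's summed RPKM in each CD4 Treg library, against 2.41% in CD8 Treg and 2.10% and 2.16% for CD49lo. Rpl41 made up 1.02% and 1.10%, 1.21%, and 1.51% and 1.52% in that order. Rps4l lay at 0.684 and 0 RPKM in CD4 Treg, 2.79 in the CD8 Treg library, and 1.27 and 4.52 in CD49lo, so that its call rests on few reads and was lost with a pseudocount of 0.1 or 1. Without CD4 Treg replicate 1, CD4 Treg replicate 2, CD49lo replicate 1 or CD49lo replicate 2, 1, 1, 1 and 2 members were called, Rpl29 each time, where 1452, 1307, 412 and 524 of all genes were called, against 3202 with every library. With no filter, 2 (Rpl29 and Rps12) were called, beside 3.64% of all genes.

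The CD8 Treg library was described against CD49lo, the other CD8+ population. Its ribosomal protein levels were higher nearly throughout. Of 88 members tested, 62 were called higher (28 small and 34 large subunit) and 0 lower, beside 1.71% and 3.59% of all genes. At an unadjusted p under 0.05, 76 were higher and 0 lower, a count not made over all genes. Limma-voom called 73 higher and 0 lower, beside 350 higher and 339 lower of the 13298 genes. The median log2 fold change was 0.77 in the small and 0.74 in the large subunit, against -0.04 over all genes and -0.07 over the 489 other genes of at least 100 RPKM. All 72 core genes tested had a positive value, from 0.37 (Rpl13a) to 1.08 (Rps16). After Rps16 came Rps28 (1.07 ± 0.13) and Rps19 (0.98 ± 0.11) in the small subunit, and Rpl9 (0.96 ± 0.12) and Rpl36a (0.95 ± 0.13) led the large.

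In the small subunit core, 2 genes were not called in this comparison, among them Rps27a, which is made as a fusion with ubiquitin. The 8 of the large subunit were Rpl13a, Rpl41, Rpl7, Rpl22, Rpl34, Rpl39, Rpl26 and Rpl37, with values of 0.37 to 0.62. With 1 CD8 Treg library, the spread came from the other 2 groups. The 62 calls became 13, 4, 0 and 1 without CD4 Treg replicate 1, CD4 Treg replicate 2, CD49lo replicate 1 and CD49lo replicate 2. Calls over all genes went from 5.30% to 1.52%, 1.25%, 0 and 0.692% in these fits, so that without CD49lo replicate 1 no gene at all was called, while 64 members had an unadjusted p under 0.05. With no filter 17 members were called, and 2.72% of all genes.

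Against CD4 Treg, the CD8 Treg library was higher for most of the same family, while Rpl29 was lower. Of 88 members, 63 were called higher (27 small and 36 large subunit) and 1 lower, beside 8.51% and 8.35% of all genes. The medians were 0.57 and 0.56 in the small and large subunit, against 0.02 over all genes and 0.04 over the 489 other genes. In the core, Rps12 had the largest value (1.27 ± 0.11), followed by Rpl36a (0.89 ± 0.13), Rpl14 (0.79 ± 0.13) and Rps25 (0.79 ± 0.13). Rpl29 fell by 2.86 ± 0.14. Rps15 (0.33 ± 0.11) was the lowest of the small subunit core. The 64 calls became 7, 5, 1 and 1 without CD4 Treg replicate 1, CD4 Treg replicate 2, CD49lo replicate 1 and CD49lo replicate 2, while calls over all genes went from 2241 to 967, 883, 155 and 330. With no filter 16 members were called, and 5.98% of all genes. The 3 comparisons share libraries, so they are not independent of each other.

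Relative to the family, few genes of the CD8 Treg library stood out. Over CD49lo, Rps16 (0.36 ± 0.12) was called higher, and Rpl7l1 (-0.62 ± 0.18) and Rpl36al (-0.55 ± 0.14) lower, beside 0.496% and 44.6% of all genes. Over CD4 Treg, Rps12 (0.72 ± 0.12) was called higher, and Rpl29 (-3.41 ± 0.15) and Rpl7l1 (-0.77 ± 0.18) lower, beside 4.90% and 30.7%. Core genes lay between -0.36 and 0.36 over CD49lo. Over CD49lo the 3 calls became 2, 1, 0 and 1 without the 4 replicated libraries in turn, in the order used above, beside 36.1%, 34.0%, 0 and 0.877% of all genes, and 1 with no filter (12.8%). Over CD4 Treg the 3 became 3, 1, 1 and 1, beside 19.2%, 11.7%, 4.57% and 3.62%, and 2 with no filter (10.8%). Without CD49lo replicate 1, 3 members had an unadjusted p under 0.05 over CD49lo.

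**Figure D4:**
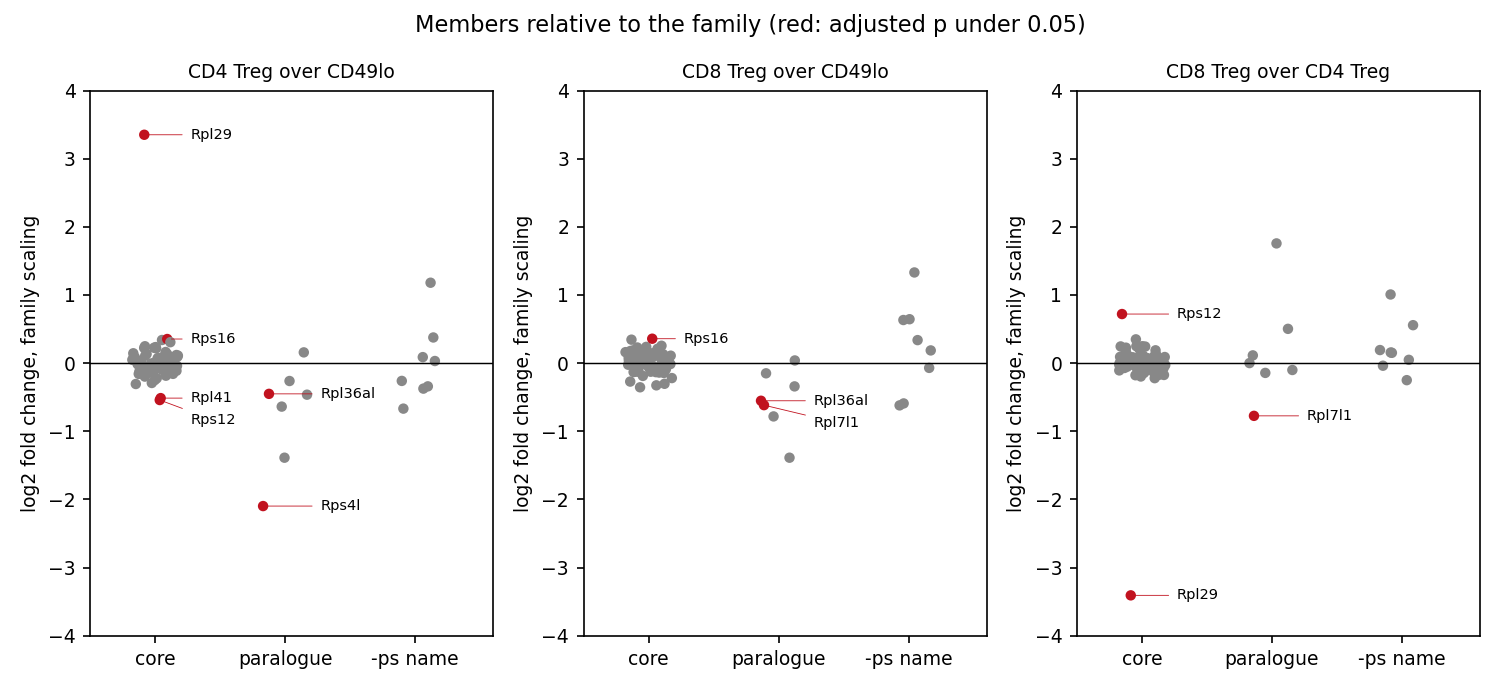
Log2 fold change of the members tested, with a few not drawn and with the family's summed RPKM held equal between libraries (vertical axis), for core genes, paralogues and -ps names in the 3 comparisons, with red for an adjusted p under 0.05. Rpl29 lies at 3.35 in CD4 Treg over CD49lo and at -3.41 in CD8 Treg over CD4 Treg, while core genes cluster near 0.

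The 7 paralogues tested had a median log2 fold change of -0.28 in CD4 Treg over CD49lo (0 called), 0.17 in CD8 Treg over CD49lo (0 called) and 0.44 in CD8 Treg over CD4 Treg (2 called higher). Over all genes 22.3%, 5.30% and 16.9% were called in these comparisons. In the first 2 comparisons limma gave 3 and 1 at an unadjusted p under 0.05, and limma-voom called 0 and 1. The first median is negative where the core's was 0.17, a difference that was not tested. Rps27l, a p53-inducible relative of Rps27, stood at 21.6 and 32.9 RPKM in CD4 Treg, 32.6 in the CD8 Treg library, and 41.6 and 33.9 in CD49lo. CD8 Treg was not its highest library. Rps27rt, another gene of that group, was at 38.8 and 45.2, 61.4, and 34.3 and 59.7 RPKM.

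Rpl22l1, the paralogue that Rpl22 is known to repress, was at 111 and 84.2 RPKM in CD4 Treg, 186 in the CD8 Treg library, and 102 and 142 in CD49lo. It was called higher in CD8 Treg than in CD4 Treg (1.05 ± 0.24). Rpl22 itself was at 704 and 563, 780, and 600 and 650 RPKM, and was called in none of the comparisons. Its values in CD8 Treg, 0.45 over CD49lo and 0.42 over CD4 Treg, each passed in 1 of the alternative settings run. Rpl36al, the near-identical partner of the X-linked Rpl36a, stood at 148 and 147, 186, and 185 and 178 RPKM, so that CD8 Treg and CD49lo were close. Rpl36a was at 717 and 650, 1178, and 614 and 724 RPKM, with CD8 Treg well above the rest. Reads of that pair may have been divided in ways the files do not show.

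The other paralogues were low. Rpl7l1, which acts in assembly of the large subunit, was highest in CD4 Treg at 33.4 and 35.8 RPKM, with 27.1 in CD8 Treg and 29.5 and 26.2 in CD49lo. Its partner Rpl7 was at 1173 and 1070, 1436, and 1074 and 1289 RPKM. Rpl39l, a testis paralogue of Rpl39, was listed at 0 in every library but CD49lo replicate 1 (2.53 RPKM). That library alone brought Rpl39l past the filter, and it counts in the paralogue medians above. The muscle gene Rpl3l and the testis gene Rpl10l were at 0 in all 5. Rps19bp1 was at 21.6 and 21.9, 21.2, and 16.4 and 22.4 RPKM, with no call.

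**Figure D5:**
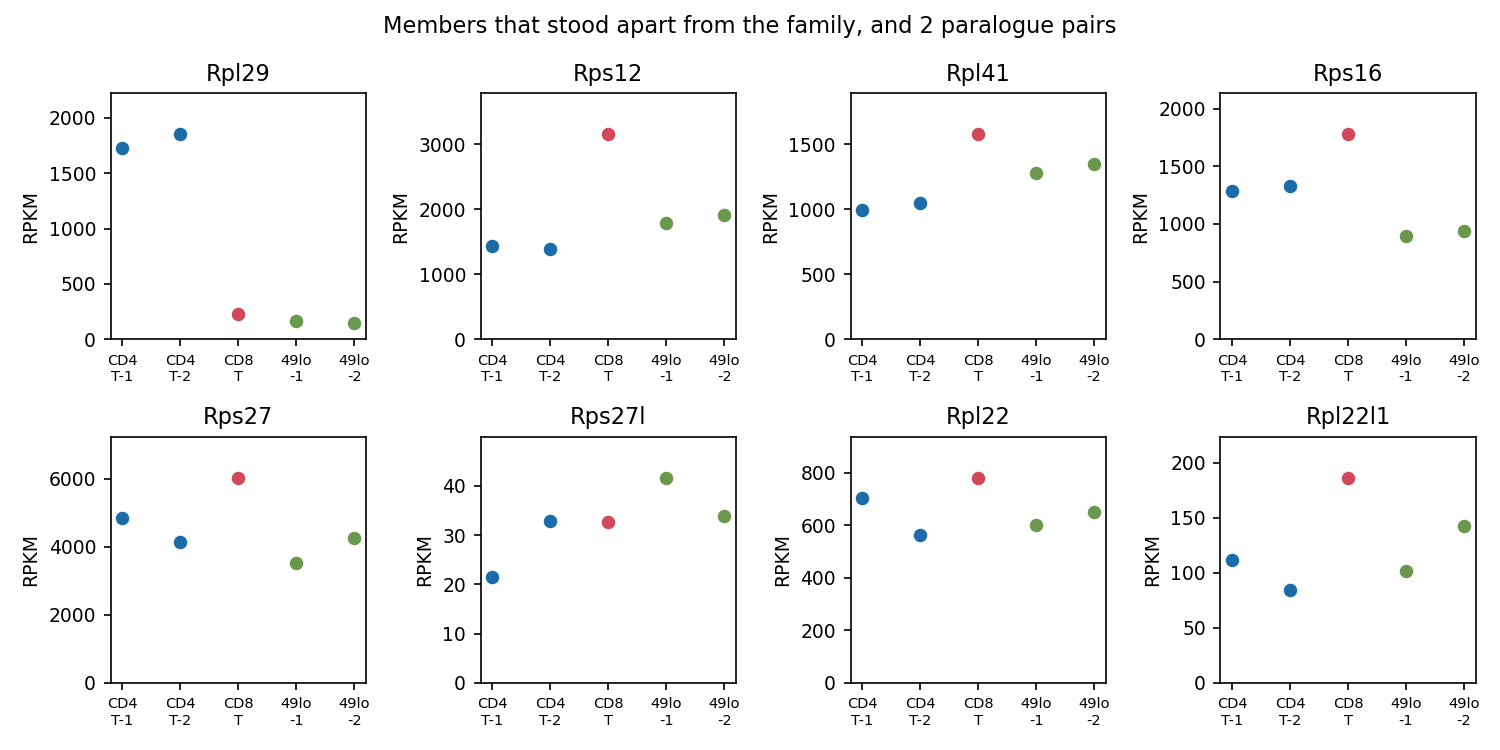
RPKM (linear axes from 0) in the 5 libraries for Rpl29, Rps12, Rpl41 and Rps16 and for the pairs Rps27 and Rps27l, and Rpl22 and Rpl22l1 (blue CD4 Treg, red CD8 Treg, green CD49lo). Rpl29 is high only in CD4 Treg (1724 and 1850), and Rps12 is highest in CD8 Treg at 3148.

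The 19 rows with pseudogene-style names were low, and their reads may come from the parent genes. Only 8 passed the filter, 5 were at 0 everywhere, and the highest was Rpl23a-ps3 at 41.7 and 49.3 RPKM in CD4 Treg, 68.6 in the CD8 Treg library, and 35.4 and 45.05 in CD49lo. Limma and limma-voom called 0 of the 8 in each of the 3 comparisons, where limma called 22.3%, 5.30% and 16.9% of all genes, and limma gave 1, 3 and 2 at an unadjusted p under 0.05 in CD4 Treg over CD49lo, CD8 Treg over CD49lo and CD8 Treg over CD4 Treg. Rpl27-ps3 had the largest values without passing (1.32 ± 0.46 in CD4 Treg and 1.98 ± 0.56 in CD8 Treg, both over CD49lo). In CD4 Treg over CD49lo, Rpl27-ps3 did pass in 2 of the alternative settings run, and relative to the family with a replicate block. A further 220 rows typed as pseudogenes with Rpl or Rps names are not members, and took 0.0763% to 0.125% of reads.

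Other parts of the ribosome and its supply were compared as lists, chosen with earlier results known. Their counts stand beside 9.45% of all genes called higher and 12.8% lower in CD4 Treg over CD49lo, 1.71% and 3.59% in CD8 Treg over CD49lo, and 8.51% and 8.35% in CD8 Treg over CD4 Treg. Of 7 ribosome components outside the name rule, Rplp2 of the stalk was called higher in CD4 Treg than in CD49lo (0.38 ± 0.09) and the rest were not. In CD8 Treg, 6 were called higher than in CD49lo and 5 than in CD4 Treg. Rplp1 stood at 6957 and 5726 RPKM in CD4 Treg, 9453 in the CD8 Treg library, and 7143 and 6050 in CD49lo, and Rpsa at 3277 and 3276, 4998, and 3464 and 3166. In CD8 Treg both were again highest.

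Of 16 other mRNAs with the TOP motif, 1 was called lower (Nap1l1, -0.50 ± 0.12) and 0 higher in CD4 Treg over CD49lo, with a median of 0.08. Limma gave 2 higher at an unadjusted p under 0.05, and limma-voom called 1. Their median over CD49lo in CD8 Treg was 0.37, below that of either subunit, with 4 called higher: Eef1g (0.95), Eef1b2 (0.81), Eef1a1 (0.71) and Tpt1 (0.56). The first 3 are subunits of the elongation factor that delivers tRNA. Over CD4 Treg the median was 0.40, with 8 called higher.

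Of 43 genes of ribosomal RNA synthesis and ribosome assembly, 3 were called higher in CD4 Treg than in CD49lo, Rrp9 (1.22), Ubtf (0.48) and the polymerase subunit Polr1a (0.47). Lower were Bysl (-0.63) and Nhp2 (-0.56), and the median was 0.01. These 3 and 2 of 43 are smaller shares than those over all genes, a difference that was not tested. In CD8 Treg over CD49lo the median was 0.39, and Polr1b (1.33), Dkc1 (0.86), Utp20 (0.76), Fbl (0.66) and Mdn1 (0.62) were called higher. Over CD4 Treg it was 0.37, with 8 called higher.

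Of 21 Myc and mTORC1 regulators tested, 6 were called higher in CD4 Treg than in CD49lo and 1 lower, while the median was -0.05. Higher were Rragd (2.40), Sesn1 (1.54), Sesn3 (0.75), Max (0.69), Myc (0.65) and Tsc1 (0.49), of which the sestrins and Tsc1 restrain mTORC1. Rptor, the subunit that defines mTORC1, was lower (-0.57 ± 0.13). Myc stood at 37.9 and 37.8 RPKM in CD4 Treg, 52.6 in the CD8 Treg library, and 26.0 and 22.8 in CD49lo. It was the 1 gene of this list called in CD8 Treg over CD49lo (1.23 ± 0.17). Over CD4 Treg, CD8 Treg had 3 of the list called higher and 2 lower.

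Mitochondrial ribosomal proteins, which make up the separate ribosome of that organelle, were called less often than all genes in each direction, a difference that was not tested. Of 76 tested, limma and limma-voom called 0 in CD8 Treg over CD49lo, with 1 at an unadjusted p under 0.05 in limma and a median of 0.00. In CD4 Treg over CD49lo the median was -0.16, with Mrps6 (1.33) higher and Mrps28 (-1.11), Mrpl27 (-1.005), Mrpl33 (-0.90) and Mrpl54 (-0.61) lower. Over CD4 Treg, CD8 Treg had 3 called higher and 1 lower, with a median of 0.13. A test between the 2 kinds of ribosomal protein was not made.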

How the data were processed

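Values were deposited by the authors in RPKM, although the table is presented as counts. CASAVA, STAR and mm10 are named in the submitters' processing notes without versions, and the treatment of reads that match several places is not given in the sources used here. Reads behind each value were recovered as whole multiples of the smallest step (100.0% of values within 0.02), and all 5 sample columns were used. The 5 libraries were fitted as 3 groups in limma (version 3.58.1; R version 4.3.3) with log2(RPKM + 0.5) as response and 2 residual degrees of freedom. Scaling was by trimmed mean of M values factors from the recovered reads, and the variance prior followed mean log2 reads scaled to library depth (RPM). Genes entered the test when 1 or more libraries held 10 reads (scaled to the median depth) and all libraries together 15. P-values are two-sided, with Benjamini-Hochberg adjustment over all genes. Because the values are RPKM and not counts, the count model allowed for in the design was not used. The code was tested on simulated data.

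Members and lists were chosen with earlier results of these data known. Genes named are those with the highest and lowest levels (5 per subunit) and fold changes (3 per subunit and comparison, 5 relative to the family), the members whose replicates differed most, paralogue pairs, X-linked members and list genes behind small counts. Rpl5, Rpl11, Rps6, Rps25, Rpl14 and the neighbours of Rpl29 were named in addition, with their values seen. A few genes that meet the rule are not reported here by name or drawn. Alternatives covered scaling, pseudocount, filter, limma-voom, each replicated library left out and a replicate block. Limma-voom called 22.0%, 5.18% and 13.7% of all genes in CD4 Treg over CD49lo, CD8 Treg over CD49lo and CD8 Treg over CD4 Treg. Counts at an unadjusted p were not made over all genes. A count of 0 allows 3 reads, or 0.359 to 0.551 RPM, and depth intervals cover counting error only.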

Additional observations from a re-analysis of the deposited data

How the results depend on the processing

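Log2 fold changes that changed sign were uncalled in the settings concerned. Without scaling, Rpl11 (-0.0051) in CD4 Treg over CD49lo, Rpl7l1 (-0.037), Rps12-ps3 (-0.069) and Rps18-ps3 (-0.024) in CD8 Treg over CD49lo and Rps19bp1 (-0.034) in CD8 Treg over CD4 Treg were negative, and Rpl39l over CD4 Treg was 0.044 by limma-voom. With each replicated library left out in turn, values over CD49lo ran from -0.16 to 0.91 for Rpl9-ps6 relative to the family, -1.09 to 0.10 for Rps12-ps3, -0.073 to 0.12 for Rpl11, -0.13 to 0.21 for Rpl22, -0.033 to 0.17 for Rpl36a and -0.047 to 0.29 for Rpl39 in CD4 Treg. In CD8 Treg they ran from -0.065 to 1.36 for Rps10-ps1 relative to the family, -0.0055 to 0.20 for Rpl7l1, -0.40 to 0.52 for Rps12-ps3, -0.22 to 0.44 for Rps18-ps3 and -0.23 to 0.098 for Rps27l, and over CD4 Treg Rpl39l stayed at 0. Rpl29 was called over CD49lo in CD4 Treg in all settings run. Over 128 fold changes of 71 genes, 977 of 1321 alternative values kept direction and side of the threshold, 313 lost the call, 11 gained it and 20 changed sign or were 0.

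Leaving out each replicated library in turn gave 1 to 2 calls in CD4 Treg over CD49lo (1 to 2 relative to the family), 0 to 13 in CD8 Treg over CD49lo (0 to 2) and 1 to 7 in CD8 Treg over CD4 Treg (1 to 3); these fits have fewer samples and 1 residual degree of freedom. Without a filter on reads the counts were 3 (2 relative to the family), 17 (1) and 16, over more genes, and among all genes called in CD8 Treg the share that was higher went from 32.3% to 85.2% over CD49lo and from 50.5% to 69.1% over CD4 Treg. Without scaling the share over CD49lo was 20.6%, and by limma-voom 50.8%.

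The medians without each library were 0.12 to 0.22 (small) and 0.16 to 0.18 (large) in CD4 Treg over CD49lo, 0.71 to 0.78 and 0.73 to 0.74 in CD8 Treg over CD49lo, and 0.56 in each case and 0.55 to 0.56 in CD8 Treg over CD4 Treg. Without scaling they were 0.12 for the large subunit in CD4 Treg over CD49lo, 0.64 and 0.60 in CD8 Treg over CD49lo, and 0.46 and 0.45 in CD8 Treg over CD4 Treg. The large subunit median in CD8 Treg over CD49lo was 0.76 with median-of-ratios scaling and 0.71 without a filter.

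Shares of reads, in the order CD4 Treg, CD8 Treg and CD49lo, were 10.1%, 9.83%, 14.2%, 8.93% and 9.24% of protein-coding reads; 9.69%, 9.43%, 13.5%, 8.54% and 8.83% without Gm26917; 20.6%, 19.8%, 24.0%, 17.1% and 17.9% of summed RPKM; and 11.026%, 10.7%, 14.9%, 9.86% and 10.0108% with further ribosome components such as Rplp0, Rplp1, Rplp2, Rpsa and Fau. Pseudogene rows brought CD8 Treg to 12.7%. CD8 Treg was highest in each.

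Replicate numbers are shared by CD4 Treg and CD49lo. Deviations from the group means of the libraries numbered 1 correlated at r = -0.02 across genes. With 2 libraries per group, this single value cannot settle whether the numbers pair the libraries. With a replicate block on the 4 numbered libraries, 13 members were called higher and 2 lower, as in the same libraries without a block, and 6 relative to the family. Over all genes, 29.8% were called with the block, 26.2% without it, and 30.7% with the block relative to the family. The fit without a block and the shares without Rpl29 were added after seeing the data. Raw depth limits the low rows: Rpl39l, Rps4l, Rpl24 and most -ps names.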
